A study of Mus musculus with 8 samples.

Results

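The zinc finger genes Zfp400 to Zfp999 were examined in mouse embryonic stem cells (mESCs) grown with or without morphine. Members were the loci of the RNA-Seq count table whose most frequent gene name fell in the numbered range Zfp400 to Zfp999, with a sum of 40 or more counts over the 4 RNA-Seq libraries. Of the 44396 loci in the table, 245 carried such a name and 215 of these reached 40 counts. The 215 loci belonged to 192 genes, since 14 genes had several loci (37 loci in all) that shared reads, and below each gene is represented by its locus with the largest count. Members just inside the threshold were Zfp618 (a second locus, sum of 40 counts) and Zfp972 (41 counts), and those just outside were Zfp608 (34 counts) and Zfp872 (26 counts).

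Most of these genes encode proteins with arrays of C2H2 zinc fingers, each finger contacting a few bases of DNA. A large group also carries a KRAB domain, which binds TRIM28 (KAP1) and through it the H3K9 methyltransferase SETDB1, and is known for the silencing of retroelements and the upkeep of imprints in early embryos and embryonic stem cells. KRAB zinc finger genes lie in clusters of similar copies that arose by gene duplication, and zinc finger genes without a KRAB domain serve in development, RNA metabolism, protein modification and transcription cofactor complexes.

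The cells were mESCs that carry GFP under the Oct4 promoter, grown without feeders on gelatin with LIF and inhibitors of MEK and GSK3. Control cultures received saline (NaCl) and treated cultures 10 µM morphine, an opioid agonist, and both were collected after 24 h. Each condition had 2 RNA-Seq libraries and 2 ChIP-Seq libraries of H3K27me3, the histone mark laid down by Polycomb repressive complex 2 at silenced developmental genes. All libraries came from the same cell line. The study's methods call the RNA samples duplicates and the H3K27me3 replicates biological, but no source used here says whether they were separate cultures, so the p-values measure only the spread between these libraries. The RNA-Seq values deposited were raw read counts per locus, with 25081266 to 29531096 counts per library, and levels are given as CPM (counts scaled to the library size, with TMM factors) or, between genes, as CPM per kb of exon. All 10 pluripotency markers examined (Pou5f1, Nanog, Sox2, Zfp42 and others) were expressed, with a summed level of 5410 to 5514 CPM in the control and 5452 to 5570 CPM after morphine, and none passed the test. The summed level of 5 markers of 2-cell-like cells with a row in the table was 7.17 to 7.24 CPM in the control and 6.07 to 6.17 CPM after morphine. The 4 of them tested all had negative log2 fold changes (median -0.27, or -0.18 with the GC and length trend described below removed), and 0 were called. Of all loci tested, 49.7% were negative. The lists of primitive endoderm, trophoblast, neural and fibroblast markers summed to between 18.1 and 46.8 CPM per library, with the fibroblast gene Dcn at 0 in every library.

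The first question was which zinc finger transcripts differed after morphine. In the edgeR quasi-likelihood test over 20350 loci, with Benjamini-Hochberg adjusted p (FDR) of at most 0.05, 10 of the 192 genes were lower after morphine and 0 were higher (58 lower and 14 higher at an unadjusted p under 0.05, where 10.8% and 9.70% of all loci were). Over all loci tested, 0.904% were called lower and 0.614% higher, against 5.21% of the zinc finger genes called lower. In bulk RNA, fewer cells that express a gene and less RNA per cell cannot be told apart.

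Of the 10 genes, 8 encode proteins with a match to the KRAB domain and 2, Zfp638 and Zfp654, do not. Zfp638 encodes a nuclear RNA- and DNA-binding protein that takes part in splicing and in silencing of retroviral DNA, and was among the most abundant zinc finger transcripts in these cells. Its level was 298 and 298 CPM in the control libraries and 229 and 259 CPM in the morphine libraries, with no overlap between conditions. The log2 fold change was -0.29 ± 0.06 (SE, n = 2 libraries per condition) at an edgeR FDR of 0.039. Zfp654 had 45.03 and 41.9 CPM in the control and 30.7 and 36.4 CPM after morphine, a log2 fold change of -0.37 ± 0.08 (edgeR FDR 0.048).

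The KRAB gene Zfp458, in the chromosome 13 cluster (locus at chr13:67254918-67269068, mm10, minus strand), showed the largest fall. It was a low transcript, counted 72 and 63 times in the control replicates and 25 and 35 times in those given morphine. These correspond to 2.62 and 2.14 CPM against 0.99 and 1.24 CPM, and the log2 fold change was -1.08 ± 0.24 (edgeR FDR 0.049). Both morphine libraries were thus below both control libraries, at a depth of few counts per library.

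A pair of neighbouring KRAB genes on chromosome 17 followed. Zfp994 (chr17:22197265-22225614) fell from 9.39 and 8.76 CPM to 5.06 and 6.57 CPM, a log2 fold change of -0.64 ± 0.13. Zfp758 (chr17:22361453-22377281) fell from 6.81 and 7.10 CPM to 4.55 and 4.72 CPM, a log2 fold change of -0.58 ± 0.13. The morphine replicates were closer together for Zfp758 than for Zfp994.

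The other 5 KRAB genes were more abundant and changed less. Zfp936 on chromosome 7 measured 31.7 and 31.2 CPM in the control and 21.0 and 25.5 CPM after morphine, and Zfp934 on chromosome 13 measured 18.1 and 18.2 CPM against 12.9 and 14.0 CPM. Zfp871 on chromosome 17 measured 69.8 and 57.8 CPM in the control and 43.3 and 51.5 CPM after morphine. On chromosome 4, Zfp990 had 146 and 139 CPM against 95.3 and 121 CPM, and Zfp984 had 180 and 165 CPM against 122 and 148 CPM. The log2 fold changes of these 5 genes ran from -0.43 (Zfp936 and Zfp934) to -0.35 (Zfp984). Morphine replicate 1 was the lowest library for each of the 10 genes, as the plot of CPM by library shows. The loci of Zfp984, Zfp934 and Zfp990 also carry names of neighbouring genes (Zfp979 and Zfp534, Zfp935, and AK049536), so their counts cover more than a single gene.

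**Figure D1:**
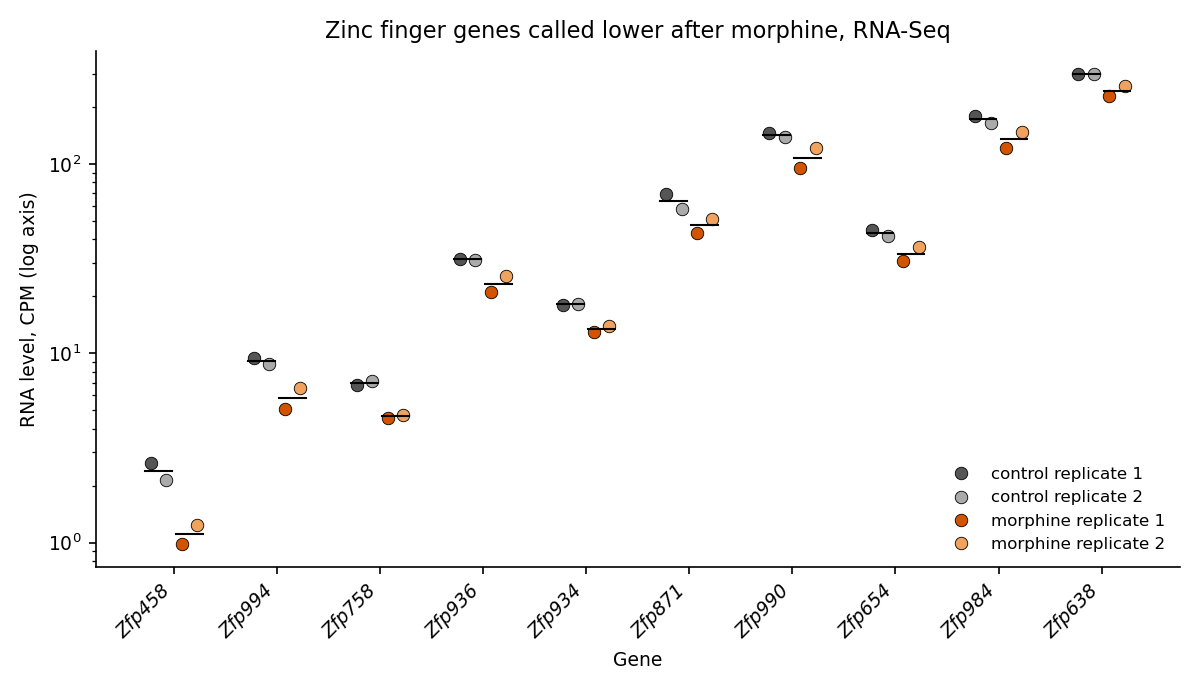
CPM on a log axis in each of the 4 RNA-Seq libraries for the 10 zinc finger genes called lower after morphine, ordered by log2 fold change, with bars at the mean of each condition. The morphine libraries lie below the control libraries for every gene shown, from about 1 CPM for Zfp458 to over 200 CPM for Zfp638.

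These calls were close to the threshold, with FDRs between 0.035 and 0.0498, and none of the 192 genes was called when morphine replicate 1 was left out (over all loci, 10 were then called higher and 3 lower, 0.0471% and 0.0141%; at an unadjusted p under 0.05, 41 zinc finger genes were lower and 1 higher, where 4.90% and 4.34% of all loci were). DESeq2 called 13 zinc finger genes lower and 1 higher, where it called 1.9% of all loci lower and 1.3% higher. It gave an adjusted p to 50 of the 192 genes and to 6147 loci in all, of which it called 6.30% lower and 4.31% higher. Of the 10 genes above it gave 5 no adjusted p, called 2 (Zfp638 and Zfp654) and gave the other 3 adjusted p-values of 0.10 to 0.11.

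Across all 192 genes, 137 had a negative log2 fold change and the median was -0.13, against a median of 0.00 and 49.7% negative over all loci tested. Both morphine libraries were below both control libraries for 101 genes (52.6%) and above them for 32 (16.7%), where 26.8% and 26% of all loci were. A KRAB match was found in the protein sequence of 111 genes (median of 12 zinc fingers), 80 had none (median of 7 fingers), and Zfp939 had no protein-coding transcript. The match was to a sequence pattern, so the 80 genes can include KRAB genes that the pattern missed.

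Among the 111 KRAB genes, 99 had a negative log2 fold change, with a median of -0.21 and quartiles of -0.33 and -0.11. The libraries did not overlap in 83 of them, 76 lower and 7 higher after morphine, where 26.8% of all loci tested were lower and 26% higher without overlap. Their summed level was 3034 and 2862 CPM in control cells and 2399 and 2668 CPM in treated cells, with morphine replicate 1 the lowest. The 80 genes without a KRAB match had a median of 0.01, with 38 negative, and 25 genes lower and 25 higher without overlap (31.3% each, near the shares of all loci). Their summed level was 3395 and 3322 CPM against 3255 and 3250 CPM.

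The classes also differed in base composition. The exons of the KRAB genes had a median GC content of 40.6% (35.2% to 59.1%), those without a KRAB match 53.0% (36.9% to 68.5%), and all loci tested 49.7%. Over all loci the fold change rose with GC content (Spearman correlation across 20335 loci 0.48), and over the 192 genes the correlation was 0.81 (Pearson 0.76). These correlations are across genes of the same 4 libraries, which are not independent replicates. Of the 53 zinc finger genes with a GC content of 30 to 40%, 52 had a negative log2 fold change, and of the 34 at 55% or more, 4 did. In the same GC classes 83.5% and 19.5% of all loci tested were negative. Of all loci at 30 to 40% and 40 to 45% GC, the classes of most KRAB genes, 59.5% and 50.4% were lower without overlap.

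The medians of KRAB genes and other zinc finger genes were also compared within classes of GC content. From 30 to 40% GC the medians were -0.34 for 49 KRAB genes and -0.33 for 4 genes without a KRAB match. From 40 to 45% GC they were -0.16 (37 genes) and -0.21 (10 genes), and from 45 to 50% both were -0.13 (16 and 12 genes). From 50 to 55% GC they were 0.10 for 6 KRAB genes and 0.01 for 23 without a match. At 55% or more they were 0.11 (3 genes) and 0.18 (31 genes). All loci tested had medians of -0.21, -0.12 and -0.04 in the 3 classes below 50% GC, and the zinc finger genes lay below the median of their class there. At 50 to 55% GC their median was 0.01 against 0.05 over all loci, and at 55% or more 0.16 against 0.14. Of the 10 genes called lower, 9 were in the lowest GC class, where 5.29% of all loci tested and 17.0% of the zinc finger genes were called lower.

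**Figure D2:**
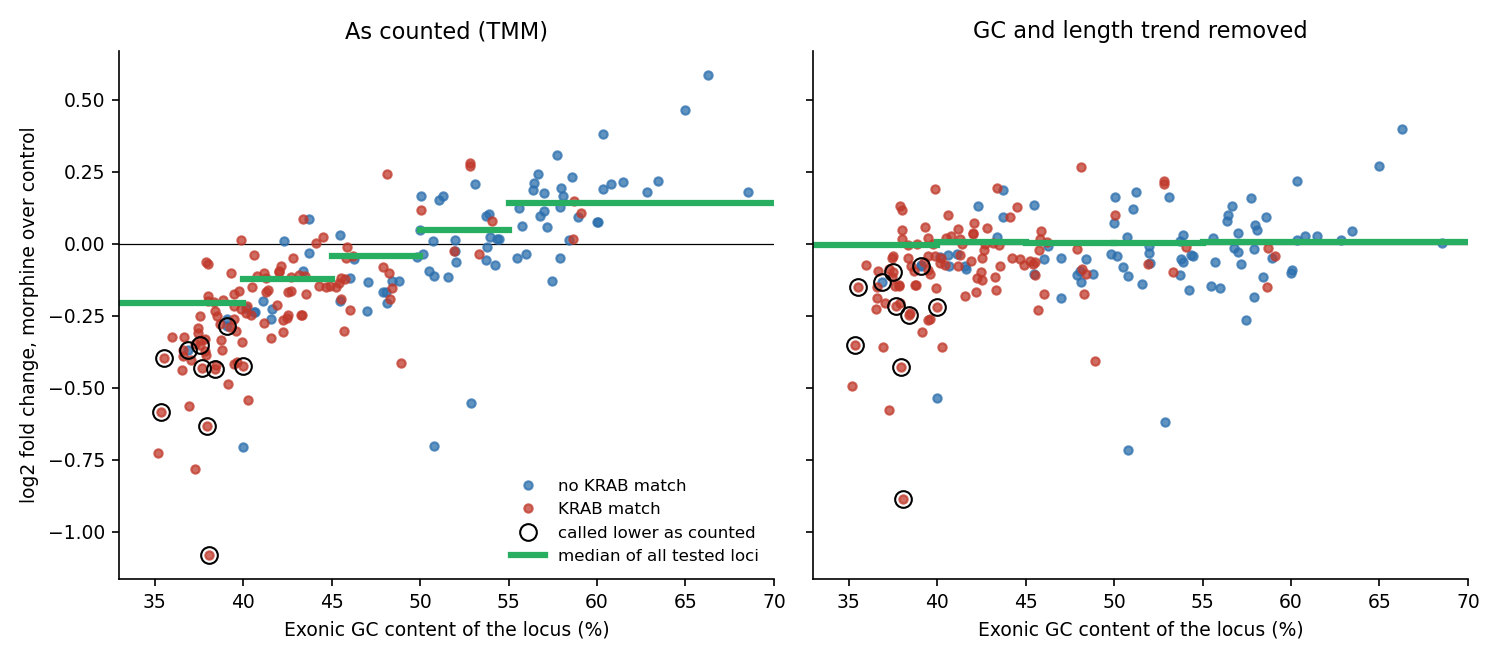
Log2 fold change of RNA (morphine over control) of the zinc finger genes against the GC content of their exons in percent, as counted (left) and after removal of the trend with GC content and length from each library (right). Points are genes with (red) and without (blue) a KRAB match, circles mark the 10 genes called lower, and green bars are the medians of all loci tested by GC class, which rise from -0.21 to 0.14 on the left and stay between -0.01 and 0.00 on the right.

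The libraries themselves differed along GC content. In the class of 30 to 40% GC, the median deviation of log2 CPM from the mean of the 4 libraries, over all loci tested, was 0.14 and 0.06 for control replicates 1 and 2, and -0.16 and -0.03 for morphine replicates 1 and 2. At 55% GC or more the control values were -0.08 and -0.04, and the morphine values 0.09 and 0.03. At 40 to 45% and 45 to 50% GC the order of the libraries was that of the lowest class, and at 50 to 55% that of the highest. Control replicate 1 and morphine replicate 1 were at the ends in every class. With 2 libraries per condition, the GC slope of the libraries and the treatment cannot be told apart.

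**Figure D3:**
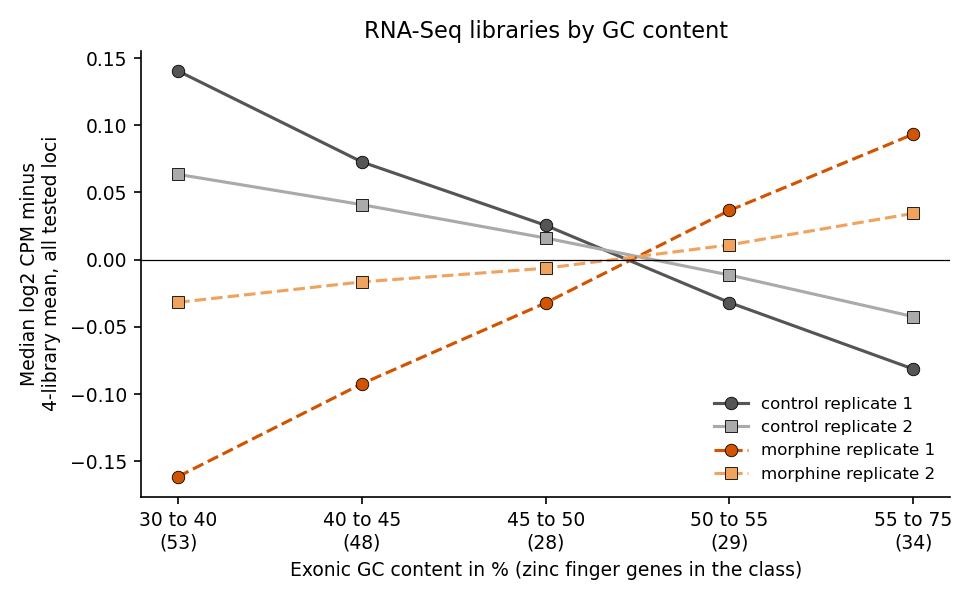
Median deviation of log2 CPM from the 4-library mean over all loci tested, by class of exonic GC content in percent, for each RNA-Seq library, with the number of zinc finger genes of each class in parentheses. The control lines run from 0.14 and 0.06 down to -0.08 and -0.04, the morphine lines from -0.16 and -0.03 up to 0.09 and 0.03.

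When a smooth trend with GC content and exon length was removed from each library, 0 of the 192 genes were called by edgeR, where 0.442% of all loci were called in either direction. At an unadjusted p under 0.05, 30 were lower and 5 higher, where 6.14% and 6.38% of all loci were. The median of the zinc finger genes was then -0.05, with 133 of 192 negative, where 49.2% of all loci were. It was -0.07 for KRAB genes (84 of 111 negative) and -0.04 for genes without a KRAB match (49 of 80 negative). A relation to GC content remained among them, with a Spearman correlation of 0.34 against 0.01 over all loci, and medians of -0.12 at 30 to 40% GC and 0.01 at 55% or more. The largest fall kept a log2 value of -0.89 (Zfp458, FDR 0.13), and Zfp994 and Zfp758 had -0.43 and -0.35 (FDR 0.15 and 0.26). Zfp638 moved to -0.08 (FDR 0.42), and Zfp984 to -0.10 (FDR 0.38).

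The genes were then arranged by chromosome. Chromosome 7 held 53 of the 192 genes and chromosome 17 held 25. A cluster was a run of 3 or more of these genes on a chromosome with at most 500 kb from the start of each to the start of the next, which gave 19 clusters with 104 genes on 8 chromosomes. The median log2 fold change of a cluster was negative in 15 of 19 and ran from -0.38 to 0.20.

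The 13 genes at chr17:21383748-22867137 (mm10), all with a KRAB match, had a median of -0.32, with 12 negative, 9 lower without overlap and 2 called (Zfp994 and Zfp758). Their median GC content was 37.9% and their median with the trend removed -0.12. Of all loci tested at 30 to 40% GC, 59.5% were lower without overlap and 5.29% were called lower. The 10 KRAB genes at chr13:67038594-67789082, which hold Zfp458 and the retroelement regulator Zfp708, were all negative with a median of -0.28 (-0.08 with the trend removed). The 6 KRAB genes at chr7:42577553-43619099, among them Zfp936 and Zfp819, were all lower without overlap. Their median was -0.34 (-0.16 with the trend removed) and their median GC content 39.8%, but Zfp715, Zfp719 and Zfp819 had 41.2%, 42.2% and 48.4%. Of all loci at 40 to 45% and 45 to 50% GC, 50.4% and 32.7% were lower without overlap. The lowest median, -0.38, was that of the 4 KRAB genes at chr4:146097312-146539395, among them Zfp600 (-0.16 with the trend removed).

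In contrast, 4 clusters had a positive median. The 6 genes at chr7:4915217-5053723, none with a KRAB match and with a median GC content of 63.1%, had a median of 0.20, and their members ranged from -0.55 to 0.59. The 10 genes at chr7:127233255-127885996 had a median of 0.09, of which 4 were KRAB genes and 4 were higher without overlap. Their median GC content was 55.8%, with Zfp747, Zfp764, Zfp689, Zfp629 and Zfp646 between 50 and 55%. Of all loci tested, 26% were higher without overlap, 33.5% of those at 50 to 55% GC and 52.7% of those at 55% or more. With the trend removed the medians of the 6 genes and the 10 genes were 0.03 and -0.03. Over the 19 clusters, the median log2 fold change followed the median GC content (Spearman correlation 0.88, a description over clusters measured in the same libraries).

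**Figure D4:**
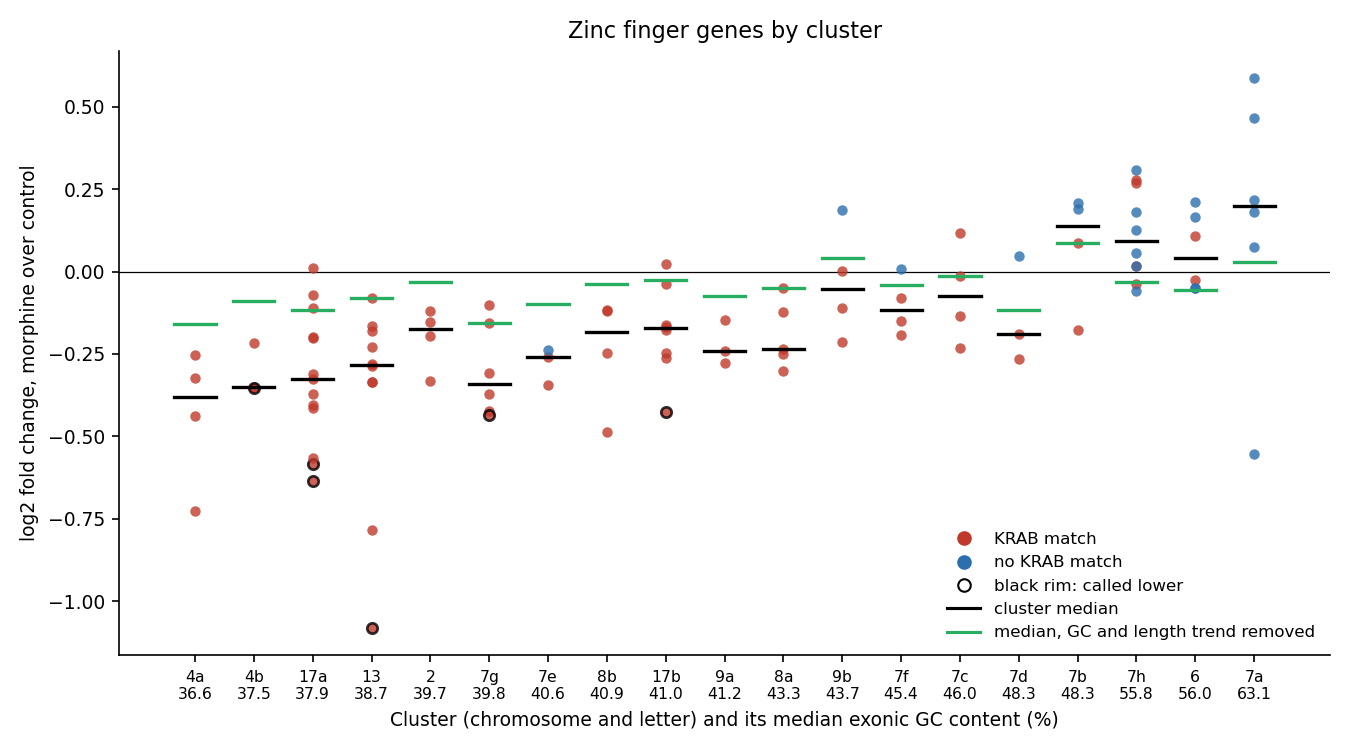
Log2 fold change of RNA (morphine over control) of the 104 zinc finger genes in the 19 clusters, ordered from left to right by median exonic GC content (36.6% to 63.1%), each named by its chromosome and, where a chromosome holds several, a letter. Black bars are cluster medians, which run from -0.38 to 0.20, and green bars the medians with the GC and length trend removed, which run from -0.16 to 0.09.

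By level per kb of exon, the 5 highest zinc finger transcripts were Zfp961 (63.7 CPM per kb), Zfp706 (58.6), Zfp568 (45.7), Zfp740 (36.3) and Zfp638 (32.9), against a median of 3.45 CPM per kb over the 192 genes and 3.31 over all loci tested. Zfp961, a KRAB gene on chromosome 8, had 212 and 206 CPM in the control and 183 and 203 CPM after morphine (log2 fold change -0.12 ± 0.05, edgeR FDR 0.25). Zfp706, known as a factor that favours exit from pluripotency, had 269 and 265 CPM against 247 and 254 CPM (log2 fold change -0.09 ± 0.04, edgeR FDR 0.26, turning to 0.02 with the trend removed). Zfp740 had 194 and 200 CPM against 198 and 199 CPM.

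KRAB genes with a described target among retroelements or imprinted genes formed a list of 8. All 8 had negative log2 fold changes, with a median of -0.18, and 0 were called. Of all loci tested, 49.7% were negative (76.7% of those at 40 to 45% GC) and 0.904% were called lower. With the trend removed the median of the list was -0.07. Of the 8, 7 were then negative, where 49.2% of all loci were, and Zfp708 turned to 0.07. The libraries of 7 were lower without overlap, and the median GC content of the list was 42.4%. Of all loci tested at 40 to 45% GC, 50.4% were lower without overlap. Zfp809 silences murine leukaemia proviruses in embryonic stem cells, and had 144 and 133 CPM in the control and 117 and 121 CPM after morphine (log2 fold change -0.21 ± 0.05, edgeR FDR 0.069; -0.06 and FDR 0.57 with the trend removed). Zfp445, which maintains imprints together with Zfp57, had 145 and 137 CPM against 113 and 125 CPM (log2 fold change -0.25 ± 0.06, edgeR FDR 0.058; -0.12 and FDR 0.25 with the trend removed). Zfp568, which represses a placental transcript of Igf2, had 346 and 329 CPM against 311 and 327 CPM (log2 fold change -0.08 ± 0.05, edgeR FDR 0.36; -0.02 with the trend removed). The morphine libraries were below the control libraries for these 3 genes. Log2 fold changes of Zfp600, Zfp932, Zfp819, Zfp961 and Zfp708 were -0.32, -0.25, -0.16, -0.12 and -0.08, and for Zfp708 the libraries overlapped. The loci of Zfp708 (Rslcan18 and BC038328) and Zfp819 (Zfp658) also carry other gene names. The exons of the Zfp600 locus overlap loci of other names. The counts of these 3 loci may therefore cover more than a single gene.

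The list of zinc finger genes with roles in development or pluripotency had 9 measured members, with a median of 0.09 (-0.02 with the trend removed), 4 negative and 0 called. Of all loci tested, 49.7% were negative, 0.904% were called lower and 0.614% higher. Zfp462, linked to pluripotency, had 131 and 117 CPM in the control and 107 and 108 CPM after morphine (log2 fold change -0.21 ± 0.06, edgeR FDR 0.090). Zfp423, a regulator of adipocyte and neural precursors, was at 62.6 and 59.7 CPM against 67.6 and 62.9 CPM (log2 fold change 0.09 ± 0.06, edgeR FDR 0.40, turning to -0.02 with the trend removed). Zfp516, tied to brown fat formation, overlapped between conditions (72.9 and 69.3 CPM against 72.2 and 69.0 CPM). The lineage regulators Zfp503, Zfp703, Zfp536, Zfp521 and Zfp750 had under 6 CPM in every library.

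The proteins of 10 listed genes act on RNA, ribosomes, SUMO or as transcription cofactors. Their median was -0.01 (-0.03 with the trend removed), 1 was called lower (Zfp638) and 5 of 10 were negative, where 0.904% and 49.7% of all loci tested were. Zfp598, the ubiquitin ligase that senses collided ribosomes, had 143 and 139 CPM in the control and 166 and 156 CPM after morphine (log2 fold change 0.19 ± 0.05, edgeR FDR 0.073), with no overlap. Zfp451, a SUMO ligase, had 90.2 and 87.3 CPM against 76.2 and 78.5 CPM (log2 fold change -0.20 ± 0.05, edgeR FDR 0.077). With the trend removed these values were 0.06 and -0.11. Zfp592, Zfp687 and Zfp532, partners in a cofactor complex, had log2 fold changes of -0.03, 0.01 and 0.01, and the libraries of the 2 conditions overlapped for each (Zfp687 turned to -0.04 with the trend removed). The ribosome biogenesis factors Zfp622 and Zfp593 had -0.03 and 0.11 (turning to 0.09 and -0.03 with the trend removed), the splicing factor Zfp830 0.09, and Zfp609, a partner of cohesin loading and Integrator, -0.07.

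Partners of KRAB zinc finger proteins were read from a list of 15 genes outside the number range, which includes Zfp57, itself a KRAB zinc finger gene. Of the 15, 1 was called lower, 0 were called higher and 11 were negative, against 0.904%, 0.614% and 49.7% of all loci tested. Trim28, the KRAB cofactor, had 2045 and 2084 CPM in the control and 2231 and 2118 CPM after morphine (log2 fold change 0.08 ± 0.04, edgeR FDR 0.32, turning to -0.09 with the trend removed). Setdb1 had 216 and 221 CPM against 214 and 221 CPM. Cbx5, which encodes the heterochromatin protein HP1 alpha, was the gene called lower, with 468 and 406 CPM against 335 and 359 CPM (log2 fold change -0.33 ± 0.06, edgeR FDR 0.034); with the trend removed it was -0.19 (FDR 0.090). The imprint regulator Zfp57 had 710 and 726 CPM against 765 and 763 CPM (log2 fold change 0.09 ± 0.04, edgeR FDR 0.23).

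H3K27me3 was read at the promoters of the same genes, as a peak within 1 kb of a transcription start site (TSS, GENCODE vM21). The deposited lists hold the peaks called in each library separately with a score of -10 times the log10 of the p-value, and give neither reads nor heights that could be compared, so the depth behind a peak is unknown. Promoter peaks were found at 20 and 23 of the 192 genes in the control libraries and at 17 and 23 in the morphine libraries. With every listed peak counted, the difference between conditions was smaller than the spread between the morphine replicates (means of 21.5 ± 2.12 and 20 ± 4.24, SD, n = 2, two-sided exact permutation p = 1, smallest possible 0.33). These were 8.85% (95% Wilson interval 5.60% to 13.7%) to 11.98% (8.12% to 17.3%) of the zinc finger genes, where 19.7% to 21.2% of 14206 tested genes with a GENCODE start had such a peak. The intervals cover counting error only. The comparison depended on the peaks used. At a score of at least 100, each control library had 12 such genes, while the morphine libraries had 7 and 10. That difference of -3.5 exceeded the pooled SD of 1.5 (exact permutation p = 0.33, the smallest possible). With equal numbers of strongest peaks it was -1.5 (pooled SD 1.12). At 3 kb and at 200 bp from a TSS it was -1 and 0, below the pooled SDs of 6.52 and 1.41.

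Genes with a KRAB match had a promoter peak in 5.41% to 9.01% of cases per library, and those without a KRAB match in 13.8% to 20.0%. In all, 29 genes had a promoter peak in at least 1 library and 15 in all 4. Of the 15, 6 had a KRAB match, and the group had a median GC content of 51.3% and a median level of 1.92 CPM per kb, against 43.2% and 3.84 CPM per kb in the 163 genes with no promoter peak. None of the 10 genes called lower in RNA had a promoter peak in any library.

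Per kb of exon, the highest of the 15 were Zfp777 (10.6 CPM per kb) and Zfp592 (7.73 CPM per kb). Zfp592 had 55.5 and 58.3 CPM in the control and 56.5 and 55.3 CPM after morphine, and its promoter peaks had scores of 99.2 and 69.6 in control replicates, against 84.5 and 98.2 in morphine replicates. Zfp777 had 36.5 and 35.3 CPM against 39.1 and 38.3 CPM (log2 fold change 0.11, turning to -0.04 with the trend removed). Its peak scores were 107, 116, 89.7 and 147 in the same order of libraries. The other named genes with a peak in all 4 libraries were Zfp827, Zfp623, Zfp956, Zfp422, Zfp661 and Zfp709, with log2 fold changes of RNA of -0.17, 0.15, 0.17, -0.12, 0.24 and -0.49. None of these passed the test, the lowest edgeR FDR being 0.068 for Zfp709. The highest score of a promoter peak among the 192 genes, 377, belonged to the weakly expressed KRAB gene Zfp964 on chromosome 8, in control replicate 2. Zfp964, singled out for this score, was counted 38 and 48 times in control RNA, and 28 and 40 times in RNA of treated cells.

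A peak in both libraries of a condition and in neither of the other was found at 1 gene. The share of all tested genes with such a pattern is not given here, so this count cannot be set against a background. Zfp651 had promoter peaks in both control libraries, with scores of 64.6 and 50.2, and in neither morphine library. Both scores were near the lowest value in the lists, 50, and the RNA level was 4.11 and 4.04 CPM in the control and 4.86 and 4.30 CPM after morphine (log2 fold change 0.17 ± 0.15, edgeR FDR 0.57). No gene had a promoter peak in both morphine libraries only. Of the 8 genes with a peak in a single library, 4 had it in morphine replicate 2 (Zfp609, Zfp930, Zfp595 and Zfp960), 2 in control replicate 2 (Zfp423 and Zfp521), 1 in control replicate 1 (Zfp612) and 1 in morphine replicate 1 (Zfp641); these were named after their values were seen. The lists of replicate 2 were the longer ones of each condition.

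**Figure D5:**
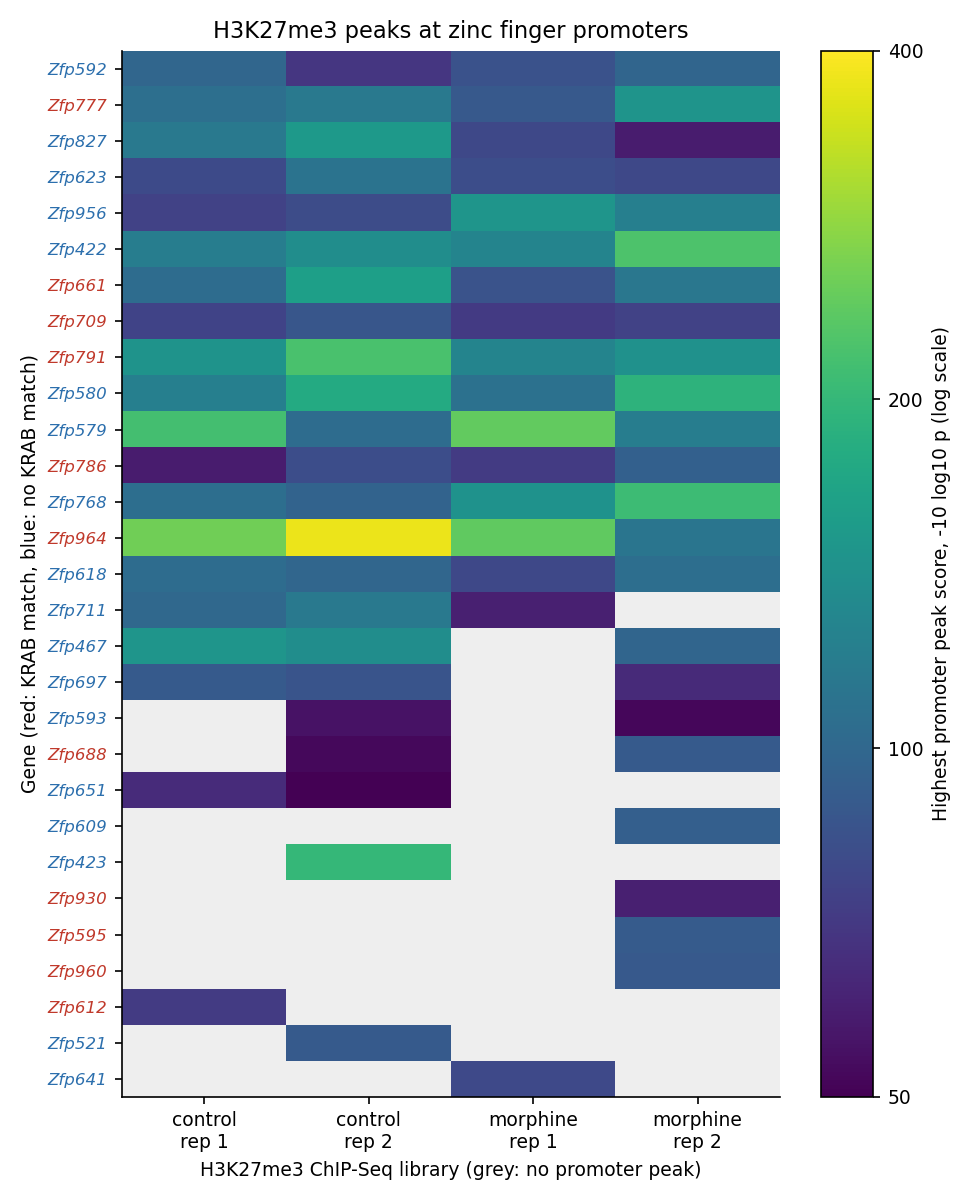
Highest score (-10 log10 p, log colour scale) of an H3K27me3 peak within 1 kb of a TSS in each ChIP-Seq library, for the 29 zinc finger genes with a promoter peak in at least 1 library, with genes with a KRAB match in red and the others in blue. The upper 15 genes have a peak in all 4 libraries, with scores of 58.4 to 377, and 8 of the lower genes have it in a single library.

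H3K27me3 is known to be placed at CpG-rich promoters. RefSeq promoter sequences (GRCm38.p6, the 250 bases before the start) were found for 158 of the 192 genes. The dinucleotide CG occurred in all 158, in 98.9% of the promoters of all tested genes and in 91.7% of all RefSeq promoters. Its median number was 16.5 in the 14 promoters with a peak in all 4 libraries, 9 in the 137 with no peak, 15 over the promoters of all tested genes and 6 over all RefSeq promoters. Genes with a KRAB match had a median of 8 and those without 17. The number ran from 3 to 48 with a peak in all 4 libraries and from 2 to 44 with no peak. Zfp791 had 3 CG and a peak in every library, while Zfp740 had 44 and no peak. The following promoters are printed 5′ to 3′ on the strand of the gene, with CG in capitals. They are examples that leave out such opposite cases. Zfp592 and Zfp964 have a peak in every library, Zfp651 has peaks in the control libraries, and Zfp994 has no peak and was lower in RNA.
Zfp592 (chr7:80993434-80993683, plus strand, 33 CG): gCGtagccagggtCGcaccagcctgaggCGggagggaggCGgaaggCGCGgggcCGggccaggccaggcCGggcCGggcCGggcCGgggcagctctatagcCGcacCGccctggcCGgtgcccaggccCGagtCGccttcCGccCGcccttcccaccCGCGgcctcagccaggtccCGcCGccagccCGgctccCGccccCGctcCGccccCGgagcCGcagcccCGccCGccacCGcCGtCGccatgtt
Zfp964 (chr8:69654306-69654555, plus strand, 16 CG): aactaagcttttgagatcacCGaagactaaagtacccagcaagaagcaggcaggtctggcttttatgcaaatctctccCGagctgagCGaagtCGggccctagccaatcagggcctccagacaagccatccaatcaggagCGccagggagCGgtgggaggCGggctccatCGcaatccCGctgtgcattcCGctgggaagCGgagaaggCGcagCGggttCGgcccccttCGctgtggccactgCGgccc
Zfp651 (chr9:121759783-121760032, plus strand, 38 CG): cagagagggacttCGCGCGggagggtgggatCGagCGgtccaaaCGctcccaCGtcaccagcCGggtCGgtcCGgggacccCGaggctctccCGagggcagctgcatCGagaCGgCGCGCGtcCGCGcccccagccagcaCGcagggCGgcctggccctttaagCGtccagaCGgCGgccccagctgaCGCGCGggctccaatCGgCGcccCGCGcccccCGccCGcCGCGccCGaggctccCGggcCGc
Zfp994 (chr17:22225615-22225864, minus strand, 8 CG): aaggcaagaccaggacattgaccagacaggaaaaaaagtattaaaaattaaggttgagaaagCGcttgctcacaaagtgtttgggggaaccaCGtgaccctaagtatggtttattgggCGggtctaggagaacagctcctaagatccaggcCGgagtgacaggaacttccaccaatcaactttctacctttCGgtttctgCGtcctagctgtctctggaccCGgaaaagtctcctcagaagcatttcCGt

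The promoter of Zfp651 held 38 CG and that of Zfp592 held 33, while the promoter of Zfp964 had a count near the median of its group. The 7 genes called lower in RNA with a RefSeq promoter had a median of 8 CG (5 to 17).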

How the data were processed

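Members and gene lists were chosen with earlier results of these data known. Per the labels and methods, the authors aligned RNA-Seq reads with HISAT2 (2.1.0), assembled loci with StringTie (1.3.6) and deposited raw counts per locus from featureCounts (1.6.4). Peaks of H3K27me3 were called by the authors with MACS per library after Bowtie2 alignment to mm10 and deposited with a score of -10 log10 of the p-value (cut-off 1e-05). The labels and the methods name different suppliers of the antibody. How reads with several alignments were counted, and whether strand was used, is not given in the sources used here, so zinc finger genes with near-identical copies are uncertain. Of the 192 genes, 20 had loci with other gene names (3 with a tie for the most frequent) and 21 overlapped a locus of another name.

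Counts past filterByExpr (all 215 member loci) were TMM-normalized and tested with edgeR 4.0.16 (R 4.3.3) by glmQLFTest over 20350 loci, with DESeq2 1.42.0 as an alternative. GC content was computed over the exons of each locus on GRCm38, and trends with GC and log2 length (splines, 5 degrees of freedom each) were removed per library as offsets. Loci lacking a GC value, 15 of those tested, took the median. KRAB domains were matched by a sequence pattern in the longest open reading frame of GENCODE vM21 transcripts, found in 343 of 21845 proteins, 301 of which had 3 or more zinc fingers, and fingers were counted as C2H2 patterns. Named genes were those called without overlap (at most 10 each way), the 5 highest per kb, those of the function lists, at most 10 with promoter peaks in a single condition and the 8 with the highest counts among those with peaks in all libraries. Alternatives were the test, scaling, count filter, replicate block, trend removal, FDR, peak score and distance, cluster gap and leaving out each library. Same-numbered replicates of the 2 conditions were not correlated in their deviations (Pearson 0.03 over 20350 loci), and no source states a shared batch.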

Additional observations from a re-analysis of the deposited data

How the results depend on the processing

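The number of zinc finger genes called lower after morphine, 10 in the main test, was 33 with edgeR's exact and likelihood ratio tests and 42 with no filter on low counts. Over all loci, 2.3%, 2.42% and 3.42% were called lower under these settings, against 0.904% in the main test. The number was 0 at an FDR of 0.01, 0 with the trend of GC content and length or of GC content alone removed, and 0 to 38 when a library was left out. Without morphine replicate 1 it was 0 (0.0141% of all loci), without control replicate 2 it was 38 (4.53%), without morphine replicate 2 it was 22 (1.99%) and without control replicate 1 it was 16 (0.945%). The number called higher was 1 with total counts (15 lower; over all loci 1.38% higher and 1.15% lower, against 0.614% and 0.904% in the main test), 3 without a filter (2.02%), 1 with DESeq2 (1.3%) and 0 to 2 when a library was left out (0.0471% to 3.14%). With the replicate block, 35 were called lower and 1 higher (3.39% and 2.16% of all loci), and 1 (Zfp936) with the block and the trend removed together (0.894% of all loci lower and 0.855% higher); the labels' numbers do not pair the libraries. With the trend removed and a library left out, 0 to 5 genes were called, where 0.146% to 1.84% of all loci were called lower and 0.179% to 2.1% higher. RLE scaling gave 10 lower (0.909% of all loci), DESeq2 13 (1.9%, or 6.30% of the 6147 loci it gave an adjusted p), all loci 11, and genes with a single name and no overlap 7. The median log2 fold change, -0.13, was -0.052 with the trend removed (-0.053 with the block), -0.062 with GC content alone removed and -0.18 to -0.094 when a library was left out, negative in all of these. Of the named genes, 9 changed sign with the trend removed, none of them called. The change in genes with a promoter peak, -1.5 per library, was -4.5 to 1.5 when a library was left out, positive without morphine replicate 1, and -3.5 to 0 under the peak alternatives. The value of -3.5, at a score of at least 100, exceeded its pooled SD of 1.5. The 2 libraries per condition limit all of these values, and why the calls differ between settings was not tested.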

Other observations

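The name range also held 19 genes under 40 counts, of which 7 had no count in any library. A promoter peak of H3K27me3 was present in all 4 libraries at 5 of them (Zfp488, Zfp608, Zfp616, Zfp663 and Zfp872) and absent from all at 11. At Zfp541 and Zfp575 a promoter peak was listed for each morphine library and for no control library, and at Zfp831 for a single control library. The share of all genes with peaks in the morphine libraries only is not given here. RNA counts were 6 and 2 (control) and 3 and 3 (morphine) for Zfp541, and 5 and 3 in either condition for Zfp575, too few to pass the count filter of the test. These genes were named after their values were seen, and the difference between conditions at single promoters was not tested.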
